A study of Rattus norvegicus with 4 samples.

Results

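Retinol 8 h against retinol 4 h is a comparison of 2 of the 4 whole-testis arrays of the series, chosen by their sample titles. The 8 h array was rat testis 8 h after retinol, and the 4 h array was testis 4 h after it. Rats of both groups had been placed at 20 days of age on a diet lacking vitamin A and received retinol after 9 weeks of it. The other arrays, 24 h after retinol and the untreated vitamin A-deficient testis (VAD, 0 h), enter no difference below and are given only to place the values. The sources used here do not give strain, genotype, dose, route or how many animals stand behind an array.

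Retinol is the alcohol form of vitamin A. Cells store it as esters or oxidise it through retinal to retinoic acid, which acts on nuclear receptors of the RAR and RXR families. Rats kept without the vitamin lose their advanced germ cells and keep early ones beside the somatic Sertoli and Leydig cells, and retinol restarts germ cell development. Spermatocytes are the cells in meiosis, and spermatids are the haploid cells that condense their chromatin and build the tail and acrosome of the sperm.

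Each value is a linear ratio that the authors deposited for a probe set, the group of short probes that reads a transcript on the Affymetrix rat U34 array. A gene's difference is the mean over its probe sets of the log2 ratio at 8 h minus that at 4 h, and its ratio on an array is the matching mean turned back to the linear scale. With 1 array a side no p-value exists, and no difference has a check between animals. The 4736 genes had a median difference of -0.03, and 4276 of them (90.3%) lay within 0.5 of 0. At least 2-fold higher at 8 h were 34 genes, 0.718% of those measured, and at least 2-fold lower were 44 genes, 0.929%. The ratios hold no signal level, so neither the presence of Sertoli, Leydig and spermatid markers nor the labelled tissue could be checked.

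Probe sets for the same gene show how far a single reading can be trusted. In 1083 genes read by probe sets from 2 different database sequences, the SD of the difference between the pair, divided by the square root of 2, was 0.33. At least 1 probe set passed 2-fold in 37 of these pairs, and in 0 of the 37 did both pass in the same direction. Of the genes past 2-fold, 30 of the 34 higher and 40 of the 44 lower had a single probe set. That is 0.946% and 1.26% of the genes with 1 probe set, against 0.256% in each direction of the genes with 2 or more. Nearest the threshold were Tph1 and Mos at 1.01 and Cd28 at -1.01 inside it, and Ugt1a9-ps at 0.98 and Syt10 at -0.997 outside.

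**Figure D1:**
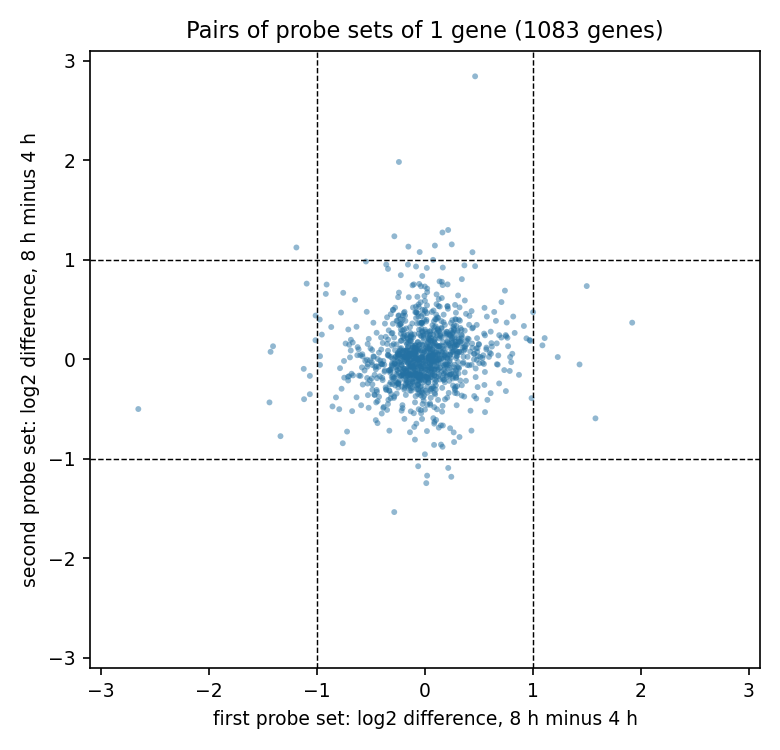
The log2 difference between 8 h and 4 h from 2 probe sets of the same gene, 1 point per gene for 1083 genes, with dashed lines at 2-fold. None of the 37 pairs with a probe set past 2-fold falls in a corner where both pass in the same direction. The probe sets of Gria2 passed in opposite directions (-1.19 and 1.12).

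Genes of haploid spermatids were lower at 8 h than at 4 h. Of the 24 measured members of the spermatid list, 11 were at least 2-fold lower (45.8%, against 0.929% of all genes) and 0 were 2-fold higher. All of the 11 but the sperm surface gene Spam1 were read by a single probe set. The list's median difference was -0.61, against -0.03 for all genes. Over its 4 members with 2 or more probe sets the median was -0.39. It was -1.11 when probe sets with a suffix for shared or relaxed probes were left out, a median over fewer genes. That setting drops Acr, Camk4, Odf2, Ppp1cc and Smcp, of which only Smcp was 2-fold lower. The list was drawn up with earlier results of these data known, so its count is a description and not independent evidence of its direction. In whole testis, fewer cells of a type and less RNA per cell cannot be told apart.

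Among the chromatin genes, Tnp2 encodes a transition protein that takes the place of histones in elongating spermatids. Its ratio was 1.99 at 8 h against 7.64 at 4 h, a log2 difference of -1.94, or 3.85-fold lower, the lowest of all 4736 genes. On the other arrays Tnp2 stood at 2.09 (VAD) and 1.41 (24 h), so the 4 h array carried its highest value. The sister gene Tnp1 was at 0.924 at 8 h against 2.01 at 4 h (-1.12), and at 1.19 in VAD and 0.706 at 24 h. Prm2, a protamine that finally packs sperm DNA, differed by -0.61, with 0.899 at 8 h against 1.37 at 4 h. Prm3 (-0.01) and the spermatocyte linker histone gene H1f6 (0.07) lay near 0.

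Tail and energy genes made up most of the rest. Smcp, of the capsule around sperm mitochondria, had a ratio of 1.48 at 8 h against 3.36 at 4 h (-1.19). Odf1, of the outer dense fibres of the tail, was at 1.05 at 8 h against 2.25 at 4 h (-1.11). Akap4, which anchors protein kinase A in the fibrous sheath, was at 0.889 at 8 h against 2.11 at 4 h (-1.25). In all 3 genes the VAD ratio lay between these values, at 1.94, 1.35 and 1.29, and the 24 h ratio was 1.11, 0.675 and 0.92. Ldhc, the germ cell lactate dehydrogenase, was at 1.32 at 8 h against 2.87 at 4 h (-1.11). Dnah8, an axonemal dynein heavy chain, was at 0.265 at 8 h against 0.761 at 4 h (-1.52), and at 1.05 in VAD and 0.698 at 24 h, so here it was the 8 h array that stood apart. Odf2 (-0.61) differed by less than 2-fold, and the dynein gene Dnah1 lay at 0.00.

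The remaining lower members have various roles in the spermatid. Fabp9, the testis fatty acid binding protein, had a ratio of 0.43 at 8 h against 1.53 at 4 h (-1.83). Cmtm2a, a chemokine-like factor gene expressed in testis, was at 1.41 at 8 h against 4.74 at 4 h (-1.75). Oaz3, the germ cell antizyme that restrains polyamine synthesis, was at 0.891 at 8 h against 2.29 at 4 h (-1.36). These genes stood at 1.12, 1.79 and 1.39 in VAD and at 0.656, 1.005 and 0.894 at 24 h. The sperm surface hyaluronidase gene Spam1 averaged -1.28 over 3 discordant probe sets (-2.66, -0.67 and -0.50), and by their median it would miss 2-fold. Crem, the transcription factor that turns on many spermatid genes, had a mean of -0.55 from 4 probe sets between -1.12 and -0.15. The acrosomal genes Acr (-0.14) and Acrv1 (0.01), the kinase gene Camk4 (-0.18) and the sperm calcium channel gene Catsper2 (-0.16) lay close to 0, as did Hook1 (-0.24) and Ppp1cc (0.12). Tsga10 was lower by less than 2-fold, with 1.44 at 8 h against 2.03 at 4 h (-0.50).

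The 4 h array stood apart for this list. Its members had a median ratio of 0.908 at 8 h against 1.38 at 4 h, while all genes had 0.919 at 8 h against 0.931 at 4 h. The list median was 1.05 in VAD and 0.851 at 24 h. In 14 of the 24 genes (58.3%) the 4 h ratio was the highest of the 4 arrays, which held for 709 of the 4736 genes (15.0%). The 4 h array is 1 deposited sample, and leaving it out leaves no comparison. Whether this sample held more spermatids than the others was not tested.

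**Figure D2:**
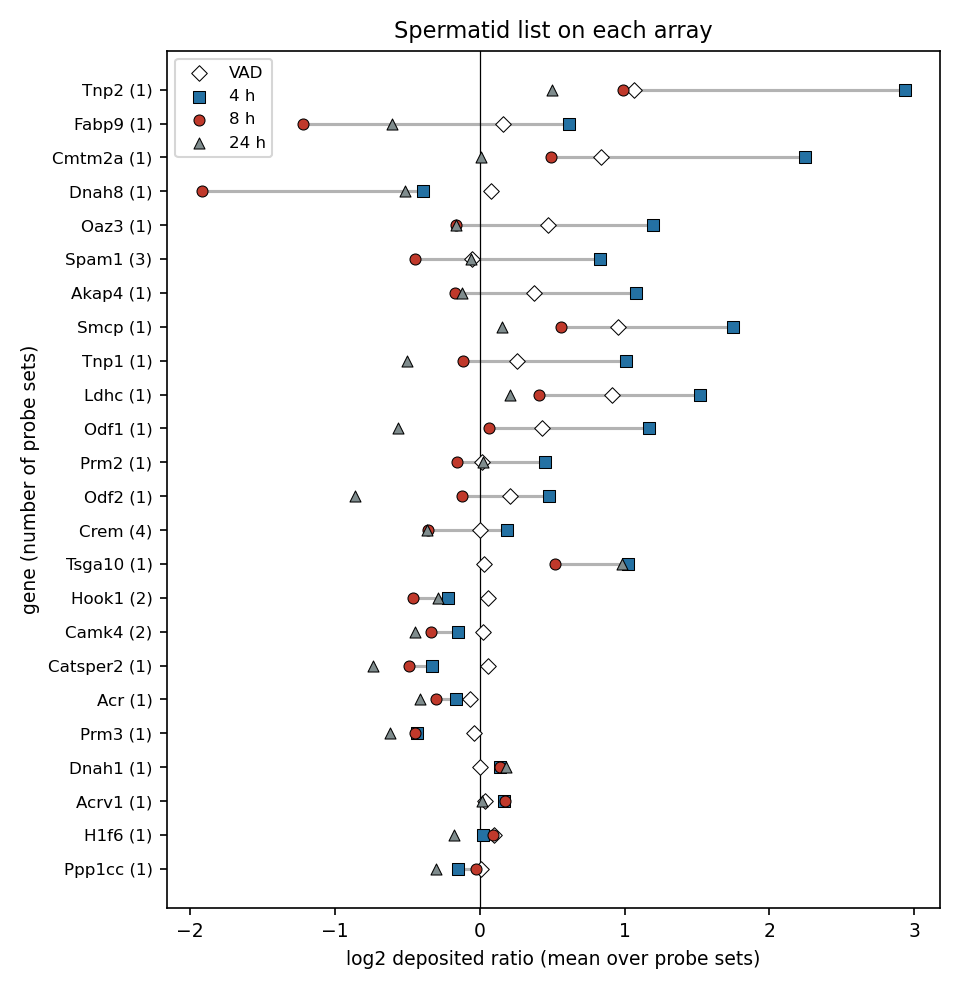
Deposited log2 ratio of each of the 24 spermatid genes on the VAD, 4 h, 8 h and 24 h arrays, ordered by the 8 h minus 4 h difference, with a grey line joining 8 h and 4 h and the number of probe sets in brackets. The 4 h squares of the 11 genes at the top lie at least 2-fold to the right of the 8 h circles, and for 10 of these 11 (all but Dnah8) the 4 h value is the highest of the 4.

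The regulatory sequence in front of these genes was examined because CREM acts through the cyclic AMP response element, whose palindromic form is TGACGTCA. RefSeq promoters (build GRCr8) were available for 20 of the 24 spermatid genes and 9 of the 11 that were 2-fold lower. The 250 bases before each annotated start were searched on both strands, and a gene counted if any of its listed promoters held the motif. The full element was found for Tnp1 and Crem, 2 of the 20 (10.0%), against 92 of 3879 measured genes with a promoter (2.37%). Over all genes past 2-fold it was no more frequent among the lower ones, with 1 of 36 lower genes (2.78%) and 2 of 29 higher genes (6.90%). The shorter TGACGT, which the full element contains, was present for 5.56% of the lower and 13.8% of the higher genes, against 9.46% of the measured ones. Within the spermatid list it stood before 4 of the 20 genes (20%) and 2 of the 9 lower ones (22.2%). A form with 1 base changed, TGATGTCA, was noticed in the printed promoters and then counted, so its share is a description. It stood before Smcp, Akap4, Oaz3 and Spam1, 4 of the 9 lower spermatid genes (44.4%), and before Crem among the 11 other spermatid genes. It was present for 2.27% of the measured genes, for 4.07% of all 27457 genes in the promoter table, for 6 of the 36 genes 2-fold lower at 8 h that had a promoter (16.7%; the others were Akap5 and Sox11) and for 0 of the 29 higher ones. The forms differ at 1 base, so they cannot match at the same position. A match is a run of letters and not a shown binding site.

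The stretches below are those 250 bases for the lower spermatid genes that hold either form, and for Tnp2, the gene with the largest negative difference, which holds neither. They are written 5′ to 3′ on the gene's strand with the motif in capitals, and Oaz3 shows TGATGTCA as its reverse complement TGACATCA. The motif begins 113 bases before the start for Tnp1 (chr9:82044279-82044528, minus strand), 62 for Smcp (chr2:180861565-180861814, minus) and 98 for Akap4 (chrX:18117550-18117799, minus). It begins 104 bases before the start for Oaz3 (chr2:184765177-184765426, minus) and 52 for Spam1 (chr4:54268037-54268286, plus). The Tnp2 stretch is chr10:5386485-5386734, plus strand.
Tnp1: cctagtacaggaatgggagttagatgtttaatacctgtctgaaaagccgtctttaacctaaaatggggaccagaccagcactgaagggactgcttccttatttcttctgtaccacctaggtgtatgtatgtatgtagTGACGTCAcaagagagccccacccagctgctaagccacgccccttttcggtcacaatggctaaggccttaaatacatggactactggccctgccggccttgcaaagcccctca
Smcp: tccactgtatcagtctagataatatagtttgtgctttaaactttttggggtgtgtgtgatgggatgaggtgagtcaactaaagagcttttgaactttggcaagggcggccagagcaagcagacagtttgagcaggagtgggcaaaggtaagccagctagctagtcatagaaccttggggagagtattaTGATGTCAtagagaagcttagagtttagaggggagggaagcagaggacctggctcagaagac
Akap4: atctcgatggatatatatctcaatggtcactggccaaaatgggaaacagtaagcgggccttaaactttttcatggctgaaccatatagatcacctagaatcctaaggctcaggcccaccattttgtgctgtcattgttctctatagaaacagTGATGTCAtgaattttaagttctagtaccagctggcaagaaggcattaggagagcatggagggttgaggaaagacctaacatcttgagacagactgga
Oaz3: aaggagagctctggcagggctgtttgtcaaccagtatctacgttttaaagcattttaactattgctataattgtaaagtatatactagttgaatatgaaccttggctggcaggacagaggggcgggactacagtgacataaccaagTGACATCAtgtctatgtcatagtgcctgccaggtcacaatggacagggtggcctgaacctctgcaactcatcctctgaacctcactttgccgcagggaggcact
Spam1: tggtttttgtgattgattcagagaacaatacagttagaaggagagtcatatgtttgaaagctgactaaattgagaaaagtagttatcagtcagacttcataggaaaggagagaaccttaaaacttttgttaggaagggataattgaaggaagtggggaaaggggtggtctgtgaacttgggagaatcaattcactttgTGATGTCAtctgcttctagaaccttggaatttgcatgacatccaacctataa
Tnp2: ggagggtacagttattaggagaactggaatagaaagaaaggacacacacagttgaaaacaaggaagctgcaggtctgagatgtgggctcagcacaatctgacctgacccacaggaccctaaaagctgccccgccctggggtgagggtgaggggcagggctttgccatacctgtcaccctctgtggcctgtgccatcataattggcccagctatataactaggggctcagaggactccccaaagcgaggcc

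Spermatocyte and sperm surface genes were lower at 8 h as well. Of the 14 genes of the spermatocyte list, 3 were at least 2-fold lower (21.4%, against 0.929% of all genes) and 0 higher, with a median of -0.43 and 13 of 14 below 0. Sycp3 of the synaptonemal complex, which holds paired chromosomes together in meiosis, was at 0.977 at 8 h against 1.73 at 4 h (-0.83). Its partners Sycp2 (-0.54) and Sycp1 (-0.42) differed by less. The 3 past 2-fold were Tcp11 (-1.08, with 0.971 at 8 h against 2.05 at 4 h), Ldhc, which is also a spermatid gene here, and Adam3a, which is also on the sperm surface list. The heat shock gene Hspa1l (-0.61), Pdha2 of the testis pyruvate dehydrogenase (-0.44) and Hspa2 (-0.30) were also lower, while Ddx4, an RNA helicase of all germ cells, was at -0.17 and H2bc1 at -0.06.

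Members of the ADAM family carry a disintegrin and a metalloprotease domain, and several sit on the sperm head and take part in binding to the egg coat. All 9 genes of the sperm surface list had differences below 0, as did 2640 of all 4736 genes, with a median of -0.29. Of the 9, 3 were at least 2-fold lower (33.3%, against 0.929% of all genes) and 0 higher. They were Adam3a, Adam5 and Spam1, whose median probe set misses 2-fold, and with ratios below the 5th percentile raised to it 1 of the 3 remained past 2-fold. Adam3a had a ratio of 0.232 at 8 h against 0.817 at 4 h (-1.82), and Adam5 of 0.85 at 8 h against 1.85 at 4 h (-1.12). Adam6 (-0.47), Adam18 (-0.29), Adam2 (-0.29), Adam4 (-0.15), Adam1a (-0.13) and Adam7 (-0.10) followed without reaching 2-fold. Together the 3 germ cell lists held 42 genes, since some are in more than 1 list, and 14 of the 42 were among the 44 genes at least 2-fold lower at 8 h.

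Genes of spermatogonia, the dividing stem and progenitor cells, were read through a list of 14 measured genes. None was past 2-fold, which 1.65% of all genes passed in either direction, so this count of 0 is near the background. The median was -0.12, with 4 higher and 10 lower, against -0.03 for all genes. Kit, the receptor that marks differentiating spermatogonia, had a ratio of 1.28 at 8 h against 1.08 at 4 h (0.25, from probe sets at 0.20 and 0.29), and Ccnd2 of the cell cycle was also at 0.25. The lowest of the list were Neurog3 (-0.37), Thy1 (-0.35, from probe sets at 0.15 and -0.86) and Itgb1 (-0.28). The stem cell receptor gene Gfra1 was at -0.27 and its partner Ret at -0.22. From the somatic side, Gdnf, the ligand of that receptor pair, was at 1.89 at 8 h against 1.82 at 4 h (0.05), and Kitlg, the ligand of Kit, at 0.15.

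**Figure D3:**
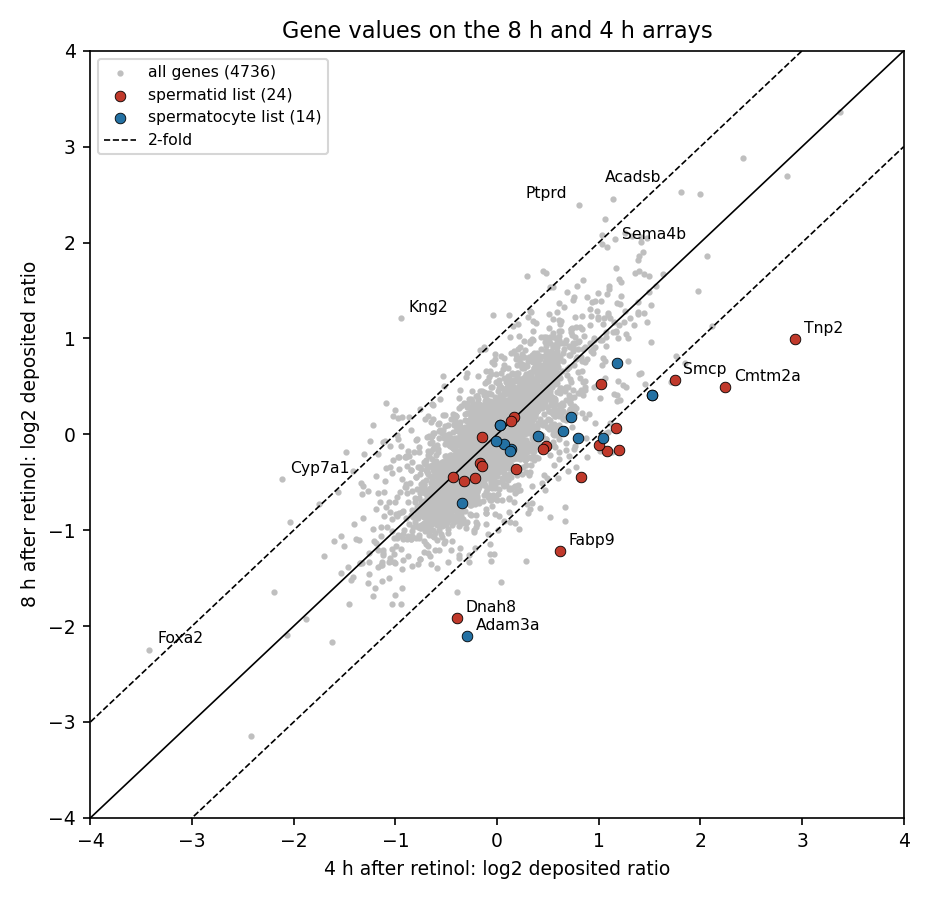
Deposited log2 ratio at 8 h against that at 4 h for 4736 genes (grey), with the 24 spermatid genes in red and the 14 spermatocyte genes in blue, the line of equality and dashed lines at 2-fold. Of the spermatid genes 11 lie below the lower dashed line, Tnp2 farthest, and none of either list lies above the upper one.

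Genes of Sertoli cells, which nurse the germ cells, and of the steroid-producing Leydig cells were read through lists of 37 and 26 genes. Neither list held a gene past 2-fold, which 1.65% of all genes passed in either direction, so in lists of this size counts of 0 are near the background. The 37 Sertoli genes had a median of -0.09, with 14 higher and 23 lower. Nr0b1 (DAX1, a repressor of steroidogenic transcription) had the largest positive difference, 0.72, with a ratio of 5.77 at 8 h against 3.50 at 4 h, both far above its VAD ratio of 1.09. Its counterpart Nr5a1 (SF-1, an activator of steroidogenic genes) was at 1.81 at 8 h against 1.31 at 4 h (0.46). Both are in the Sertoli and the Leydig list. The keratin gene Krt18 (0.44, from 0.28 and 0.61), the gap junction gene Gja1 (0.37), Wt1 (0.30, from 3 probe sets between 0.02 and 0.46) and Gata4 (0.24) were higher. Lower were the fatty acid binding protein genes Fabp5 (-0.75) and Fabp3 (-0.41), the water channel gene Aqp8 (-0.54), Gata1 (-0.54) and the follicle-stimulating hormone receptor gene Fshr (-0.38).

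The 26 Leydig genes had a median of -0.05. Fdx1, which passes electrons to the side-chain cleavage enzyme, was at 0.751 at 8 h against 1.08 at 4 h (-0.53, from probe sets at -0.59 and -0.46). Star, which brings cholesterol into mitochondria, was at 1.05 at 8 h against 1.43 at 4 h (-0.45, from -0.71 and -0.18). The steroid synthesis genes Cyp17a1 (-0.23) and Cyp11a1 (-0.07) and the luteinising hormone receptor gene Lhcgr (0.00, from 5 probe sets between -0.34 and 0.36) differed by less than the spread of 0.33 between probe sets. On the later array Cyp11a1 stood at 0.313 and Cyp17a1 at 0.326, so the low values of these enzymes at 24 h were not yet seen for Cyp11a1 at 8 h (1.04), and only in part for Cyp17a1 (0.526).

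Other cell types were read through their own lists. Of all genes 1.65% passed 2-fold in either direction, so counts of 0 in lists this short are near the background. The 13 peritubular myoid genes (median 0.06) and the 13 endothelial genes (median 0.02) held none past 2-fold. In the endothelial list the vessel destabilising gene Angpt2 was at -0.85. Of the 39 leukocyte genes, with a median of -0.01, Mcpt9 of mast cells was 2-fold higher (1.31). Clec9a of dendritic cells (-1.17) and Cd52 (-1.12) were 2-fold lower, 5.13% of the list against 0.929% of all genes. The 10 epididymal genes, from the neighbouring organ, had a median of -0.19. Of them 2 were past 2-fold, both lower (20%, against 0.929% of all genes): Scgb2a1 (-1.25) and Cd52, which is on both lists. The 8 h ratio of Scgb2a1 was 0.32, below the 5th percentile of that array. The part of epididymal tissue in the spermatid difference was not tested. Of the 8 red cell genes 0 passed 2-fold, while 7 had differences above 0. Their median was 0.20, with the globin genes Hba-a3 (0.71), Hbb-b1 (0.61) and Hbb (0.56) at the top.

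**Figure D4:**
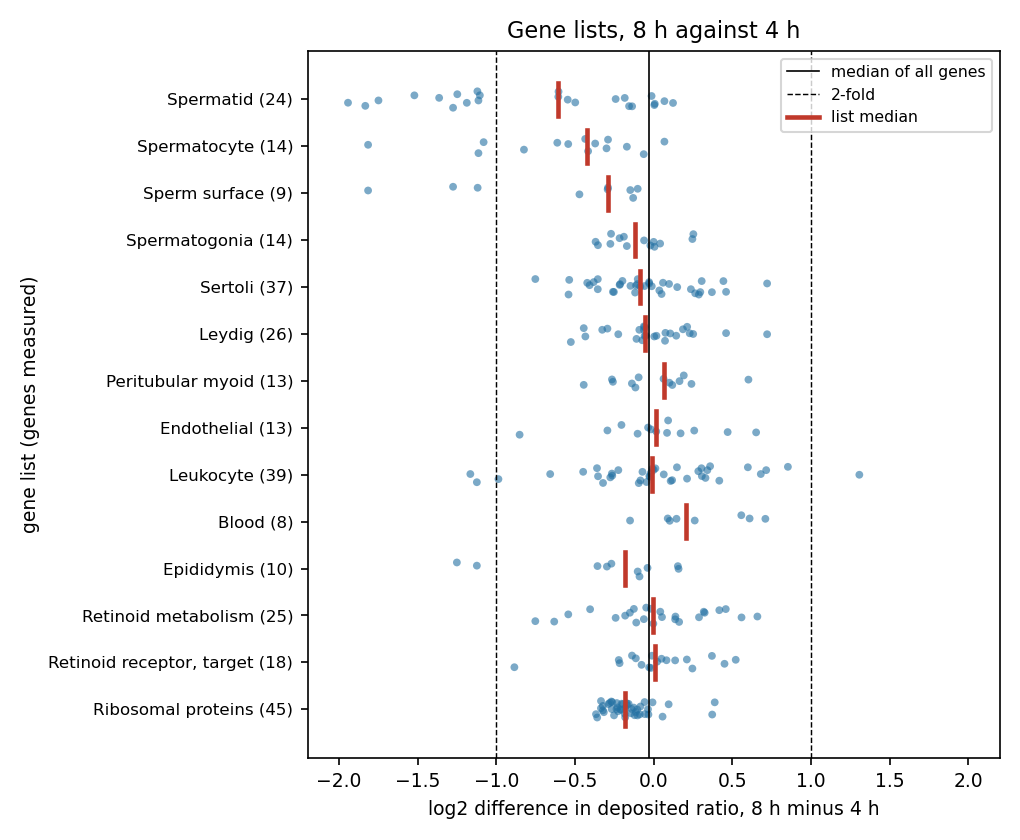
Log2 difference between 8 h and 4 h of every measured gene (points) in 14 lists, with the list median in red, the median of all genes (-0.03) as a solid line and 2-fold as dashed lines. The spermatid, spermatocyte and sperm surface medians of -0.61, -0.43 and -0.29 lie farthest left, and the ribosomal points lie close together around -0.18.

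No gene of the retinoid lists used here passed 2-fold between 4 h and 8 h. That count is near the background of 1.65% of all genes in lists this short. Cyp2c7 (-1.57) and Dhrs7c (-1.22), past 2-fold and given below, are in neither list. The 25 genes of retinoid binding, transport and metabolism had a median of 0.00, with 12 higher and 13 lower. Rdh10, which oxidises retinol to retinal, was at 2.04 at 8 h against 1.53 at 4 h (0.42). The scavenger receptor gene Cd36, which takes up fatty acids, was at 3.63 at 8 h against 2.64 at 4 h (0.46, from 0.37 and 0.54). Other positive differences were those of Rdh7 (0.66), Cyp2c22 (0.56), Adh7 (0.32), Lpl (0.32, from 3 probe sets between 0.25 and 0.39) and Adh4 (0.29). Aldh1a2, the main retinoic acid synthesising enzyme of germ cells, was at 0.658 at 8 h against 0.871 at 4 h (-0.40), and Aldh1a1 was at -0.11. Fabp5 (-0.75), which also carries retinoic acid, the esterase gene Ces1e (-0.63) and Rpe65 (-0.54) were the lowest of the list. The binding protein genes Crabp1 (0.16), Crabp2 (-0.02), Rbp2 (0.04) and Rbp4 (0.00) and the retinoic acid degrading enzyme gene Cyp26b1 (0.14) lay near 0. The other 8 members were between -0.24 (Adh5) and 0.14 (Rdh16).

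The 18 receptors and targets had a median of 0.01. Rara, the retinoic acid receptor most important to spermatogenesis, was at 1.09 at 8 h against 1.05 at 4 h (0.05, from 3 probe sets between -0.05 and 0.15). Rarb (-0.11), Rxra (-0.22), Rxrb (0.21) and Rxrg (-0.08) were also within 0.33 of 0. Ucp1 (0.52, probe sets at 0.39 and 0.66), Ppard (0.45, from 3 probe sets between 0.32 and 0.64) and Hoxa5 (0.37) were at the upper end, and Cdx1 (-0.89) at the lower. The rest of the list was between -0.22 (Ret) and 0.25 (Kit). Of the 41 immediate early genes 0 passed 2-fold, a count near the background of 1.65% of all genes. Dusp6 at 0.70 and Cebpb at -0.51 were at the ends of this list.

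The genes with the largest positive differences differed in where their ratios lay. For Ptprd, Acadsb, Sema4b and Efnb1 the 4 h ratio was already 1.5 or more. Ptprd, a receptor tyrosine phosphatase, was at 5.26 at 8 h against 1.75 at 4 h (1.58), and at 5.87 at 24 h. Acadsb, an acyl-CoA dehydrogenase of branched-chain amino acid breakdown, was at 5.49 at 8 h against 2.201 at 4 h (1.32). The semaphorin gene Sema4b was at 4.75 at 8 h against 2.09 at 4 h (1.18), and the ephrin gene Efnb1, named after its values were seen, at 4.21 at 8 h against 2.04 at 4 h (1.04). At 24 h Acadsb, Sema4b and Efnb1 stood at 4.77, 4.05 and 3.83, so all 4 genes stayed well above their 4 h ratios.

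A further 7 genes had an 8 h ratio of 2 or more and a lower 4 h ratio. The kininogen gene Kng2 had the largest difference of all, 2.16 (4.47-fold), with 2.31 at 8 h against 0.518 at 4 h, and 0.745 in VAD and 2.12 at 24 h. Sftpc, known as a lung surfactant gene, was at 2.36 at 8 h against 0.973 at 4 h (1.28), and Csap1, a salivary protein gene, at 3.21 at 8 h against 1.39 at 4 h (1.21). These 3 genes held their 8 h ratios at 24 h, at 2.12, 2.63 and 3.45. The lipase gene Pnliprp2 (1.35) and the sialyltransferase gene St3gal3 (1.25) did not: they were at 3.13 and 3.25 at 8 h against 1.23 and 1.36 at 4 h, and at 1.502 and 1.399 at 24 h. Serpinb5 (1.12) and Tph1 complete the 7.

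In 19 of the 34 the 4 h ratio was below 1 and the 8 h ratio below 1.5, so the higher value at 8 h followed a low reading at 4 h. The nicotinic receptor gene Chrna5 was at 1.26 at 8 h against 0.469 at 4 h (1.42), the calcium channel gene Cacnb4 at 1.07 at 8 h against 0.429 at 4 h (1.32), and Myoc at 1.19 at 8 h against 0.497 at 4 h (1.26). Their VAD ratios of 0.885, 0.768 and 1.02 place the low values on the 4 h array. The bile acid synthesis gene Cyp7a1 had a mean of 1.65 from probe sets at 0.46 and 2.84, the second resting on ratios of 0.508 at 8 h against 0.0708 at 4 h. The neural transcription factor gene Neurod1 (1.21) was read by 2 probe sets of a single database sequence (1.24 and 1.18). Mcpt9, Or8g20e (1.18), Foxa2 (1.18), Amelx (1.14, from 0.37 and 1.92) and Pou1f1 (1.13) were of the same kind. Foxa2 and Pou1f1 stayed low at 8 h, at 0.211 and 0.53. With ratios below the 5th percentile of each array raised to it, 19 genes remained higher. Foxa2 and Pou1f1 lay below this floor on both arrays. Their shared value of -0.12 is then the difference between the floors and not a reading of these genes.

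**Figure D5:**
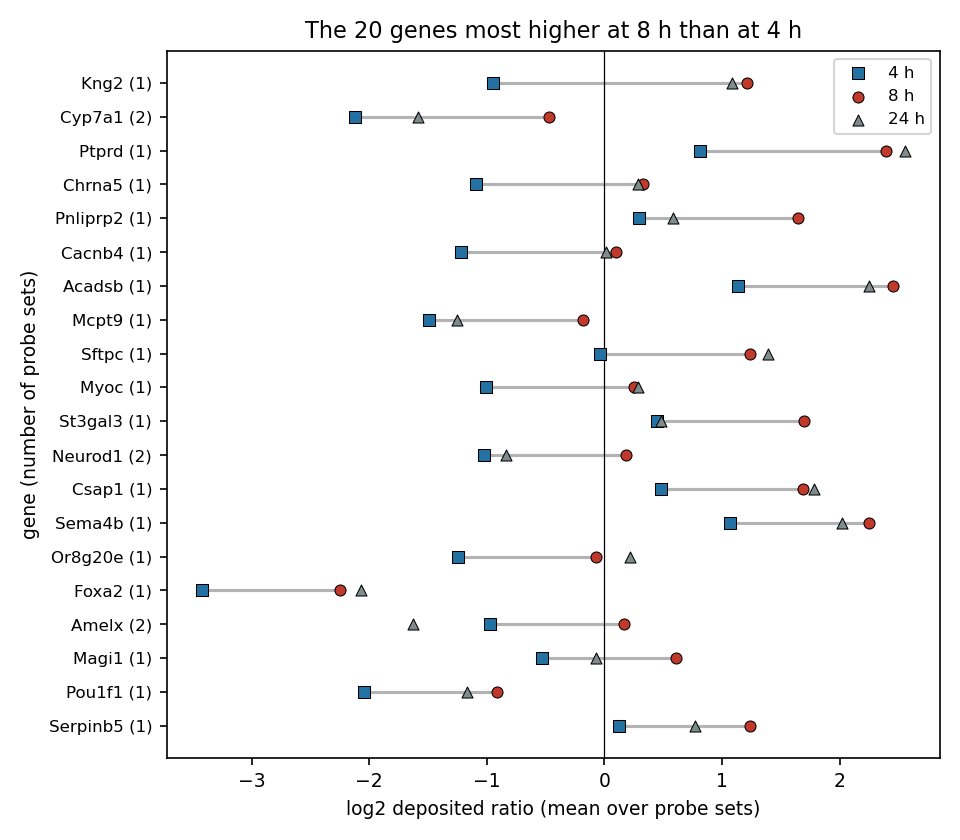
Deposited log2 ratio at 4 h, 8 h and 24 h of the 20 genes with the largest positive 8 h minus 4 h difference, largest at the top, with a grey line joining 8 h and 4 h. Ptprd, Acadsb and Sema4b have 4 h values already right of 0, while Chrna5, Cacnb4, Myoc, Foxa2 and Pou1f1 start left of it.

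Among the 44 lower genes, 30 were in none of the 3 germ cell lists. With ratios below the 5th percentile of each array raised to it, 32 of the 44 remained 2-fold lower. The axon guidance gene Dpysl4 was at 0.343 at 8 h against 1.03 at 4 h (-1.58), and at 0.0703 at 24 h. The angiotensin peptide receptor gene Mas1 was at 0.40 at 8 h against 1.22 at 4 h (-1.61), Cyp2c7 at 0.535 at 8 h against 1.59 at 4 h (-1.57), and the actin cap gene Tmod2 at 0.592 at 8 h against 1.59 at 4 h (-1.43). At 24 h Cyp2c7 was back at 1.34, whereas Mas1 and Tmod2 stood at 0.581 and 0.735. Nxph1 (-1.38), the keratin gene Krt5 (-1.31), the transcription factor gene Sox11 (-1.26), Dhrs7c (-1.22), Lgals7 (-1.21) and Arhgap39 (-1.19) complete the 20 largest negative differences with the genes described above. Dpysl4, Mas1, Sox11, Dhrs7c and Lgals7 had 8 h ratios below the 5th percentile of that array, so the size of their differences rests on low readings. Several others have known roles in sperm or testis and were named after their values were seen: Crisp2, a sperm acrosome and tail protein gene (-1.19, with 0.887 at 8 h against 2.02 at 4 h), Mak, a male germ cell kinase gene (-1.10), and Atp1a4, the sperm sodium pump subunit gene (-1.06).

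Of the 33 lists, 18 held no gene past 2-fold. Since 1.65% of all genes passed it in either direction, counts of 0 in lists of these sizes are near the background. Genes of housekeeping machinery had medians slightly below that of all genes. The 45 ribosomal genes had a median of -0.18, with 41 below 0 and a range of -0.37 (Rpl35) to 0.39 (Rpl3l). The 56 respiratory chain genes had a median of -0.12 with 43 below 0, and the 27 proteasome genes of -0.10 with 20 below 0. Over all genes, 2640 of 4736 were below 0. In cholesterol and fatty acid synthesis (25 genes, median -0.14), Acat2 (-0.71, from -0.78 and -0.63) and Fdps (-0.59, from 3 probe sets between -0.83 and -0.38) were lowest and Acaca (0.53) highest. Cell cycle genes (40, median 0.00), heat shock genes (30, median 0.02) and growth factor genes (69, median 0.04) centred on 0 with none past 2-fold. The iron uptake gene Tfrc was at 3.05 at 8 h against 1.80 at 4 h (0.76), short of 2-fold.

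The counts depended on the scaling in part. Centring each array on its median gave 35 genes higher and 43 lower. The 9 bacterial spike-in probe sets had a median 8 h minus 4 h shift of 0.05, and scaling on them gave 24 genes higher and 49 lower, where the deposited values gave 34 and 44 (32.9% of the genes past 2-fold were then higher, against 43.6%). The spread along control transcripts also differed between the arrays. In the 8 h minus 4 h difference, 5′ probe sets were above 3′ ones by 0.22 for actin, 0.22 for GAPDH and 0.71 for hexokinase. The mean of 0.38 was raised by hexokinase, whose middle probe set (-0.43) was below its 3′ one (-0.22). Whether the difference between ends bears on genes read near either end was not tested.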

How the data were processed

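Total RNA of whole rat testis was labelled with biotin from 10 micrograms, per the labels' protocols, and read on the Affymetrix rat U34 array. The authors deposited 1 linear ratio per probe set and sample. Per the submitters' processing notes, the tools named are GCOS and MAS5, with no version. How the ratios were formed, their reference, their scaling and any pooling of animals were not given in the sources used here. Precision is limited by the number of arrays and cannot be estimated.

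Of 8799 probe sets, 59 were controls. The platform annotation gave 1 symbol to 7006, several to 308 and none to 1426, and 6985 had an Entrez ID found in RefSeq (GRCr8). The 7006 gave 4736 genes, 1565 with 2 or more probe sets. The last 2 classes of probe set were left out of gene values. Ratios were put on the log2 scale, 8 h minus 4 h was taken per probe set and averaged per gene (Python 3.11.15, pandas 2.3.3, numpy 2.4.6), and genes were counted past 2-fold. The summary was tested on simulated data. Alternatives were centring, spike-in scaling, the median or the highest probe set, leaving out probe sets with a suffix for shared or relaxed probes, a floor, other thresholds and genes with 2 or more probe sets.

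Named genes are the 20 with the largest difference in each direction, all members of the retinoid and spermatid lists and up to 5 of every other list with the largest absolute difference, of which part is printed. Other genes named were chosen after their values were seen: those at the 2-fold threshold, Akap5, Efnb1, Crisp2, Mak, Atp1a4, Fga, Fgb, Creb1, Pla2g2a, and further members of the spermatocyte, sperm surface, Sertoli and Leydig lists with Gdnf and Kitlg. The printed promoters were chosen likewise. The comparison and the lists were chosen with earlier results of these data known. Lists taken by symbol prefix hold a few other genes, such as the kinase gene Rps6kb1 in the ribosomal list.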

Additional observations from a re-analysis of the deposited data

Results flagged for a closer look

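Probe sets without a gene symbol in the platform annotation were not used for genes, and some of them differed between the arrays. Of these 1426 probe sets, 27 (1.89%) passed 2-fold upward and 21 (1.47%) downward at 8 h relative to 4 h, against 0.885% and 1.04% of the 7006 probe sets with 1 symbol. The lowest was at -3.23, below any named probe set. Of the 59 control probe sets 1 passed 2-fold, the mouse Fas control, which was at -1.10.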

How the results depend on the processing

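No paired analysis was possible because each time is 1 array, and for the same reason no replicate could be left out. The lists' medians under centring, spike-in scaling and the other summaries of probe sets stayed within 0.33 of the values above, and so did the median of all genes. Exceptions were the spermatid median without suffixed probe sets (-1.11), which is over fewer members, and 1 sperm surface median. The latter is over members with 2 or more probe sets, which is Spam1 alone (-1.28). A floor at the 5th percentile gave 19 genes 2-fold higher, 32 2-fold lower and 1 sperm surface gene 2-fold lower. It put Foxa2 and Pou1f1 at -0.12, which is the difference between the floors of the arrays. The spermatid count of 11 was 9 with the floor and 10 to 11 otherwise. Genes with 2 or more probe sets gave 4 higher and 4 lower. A 1.5-fold threshold gave 171 and 161, and a 3-fold threshold 2 and 5. Signal over background is not known from ratios, and spread between animals was not measured.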

Other observations

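The 3 chains of fibrinogen, which the liver makes together, were not read together. Fgg was at 0.97 (probe sets at 0.77 and 1.18), Fga at -0.69 (from 3 probe sets between -1.12 and -0.10) and Fgb at -0.58 (probe sets between -1.17 and 0.02). Among nuclear receptors outside the retinoid families (30 genes, median 0.01), Nr2f1 (COUP-TF1) was at 0.83 from probe sets at 0.66 and 0.998, and the oestrogen receptor gene Esr1 was at 1.99 at 8 h against 1.26 at 4 h (0.65), and at 3.16 at 24 h. The corepressor gene Nr0b2 was at -0.64, from 3 probe sets between -1.05 and -0.09. Of the cyclic AMP genes (33, median -0.04), the phosphodiesterase genes Pde1b (0.93) and Pde2a (0.71) and the transcription factor gene Creb1 (0.52) were at the upper end, and Pde4d had a mean of -0.62 from probe sets at 0.01 and -1.24.

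A few leukocyte and inflammation genes, named after their values were seen, had an 8 h ratio between those at 4 h and 24 h. The secreted phospholipase gene Pla2g2a had ratios of 2.05, 3.94 and 12.2 at 4, 8 and 24 h, and S100a8, of neutrophils, of 0.986, 1.78 and 4.03. The granzyme gene Gzmn, placed here only by its membership of the leukocyte list, ran the other way, with 4.33, 2.19 and 0.803. Its VAD ratio was 1.03, so the 4 h array carried its highest value.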
